A study of Mus musculus with 9 samples.

Results

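Autophagy delivers worn proteins and organelles to the lysosome, and mitophagy is the branch that removes damaged mitochondria. The genes described here are 10 of the 54532 genes in the count table, chosen by gene name, and they cover the steps of the pathway: Ulk1 and Becn1 start it, Map1lc3a, Map1lc3b and Gabarapl1 coat the growing membrane, Sqstm1 is a cargo receptor, Pink1 and Bnip3l mark mitochondria, Lamp2 sits in the lysosomal membrane, and Tfeb switches on lysosomal genes. All 10 were found, and all 10 passed the filter on low counts in every comparison. Ulk1 was the member that met the call rule. It did so for the saline-treated hearts after ischemia and reperfusion against sham, where 8.97% of all genes were called. It also did so for all 6 hearts after ischemia and reperfusion, where 8.38% of all genes were. Its adjusted p-values in edgeR's quasi-likelihood test were 0.098 and 0.090. Ulk1 was below the lowest sham heart in 6 of 6 hearts, and 8.46% of all genes were lower in this way.

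The hearts came from wild-type male C57BL/6J mice of 8 to 10 weeks. In the sham group the chest was opened and the suture was passed without being tied. In the MIRI group (myocardial ischemia/reperfusion injury) the left anterior descending coronary artery was tied for 30 min and blood flow was restored for 24 hrs, with saline given. The GXNI group had the same surgery with Guanxinning Injection, an injectable herbal preparation, at 9 mL/kg through the tail vein. Each group held 3 mice, and each library was made from total RNA of the heart tissue of 1 mouse. The libraries held 17119454 to 22811295 counts, and 3 counts correspond to 0.132 to 0.175 CPM, the counts scaled to the library total. Intervals give the uncertainty of a difference between groups, estimated from the variation between these mice. The SDs give the spread between mice.

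The makeup of the libraries bears on every result. The labels name the cell type as cardiomyocytes, but the RNA was that of heart tissue: neutrophil, macrophage, fibroblast, endothelial and erythroid markers were all read. No gene of the marker lists of 9 cell types was at 0 in every library. Some atrial and adipocyte markers rest on a few counts, such as Bmp10 with 1 count, in the library labelled MIRI 2. The libraries labelled MIRI 2 and GXNI 3 also stood apart from the others of their label. On the first principal component, which held 64.8% of the variance of 15207 genes, the sham libraries were at -60.1 to -52.2, and the library labelled MIRI 2 was at -43.9 while MIRI 1 and MIRI 3 were at 61.6 and 83.6. GXNI 1, GXNI 2 and GXNI 3 were at -43.6, 18.6 and 93.9. By Spearman correlation over the same genes, the library labelled MIRI 2 was most like GXNI 1 (rho 0.982, against at most 0.939 with its own label) and GXNI 3 most like MIRI 3 (0.987, against at most 0.962). Other libraries were also nearest to another label. GXNI 1 was most like sham 1 (0.984, against at most 0.971 with its own label) and GXNI 2 most like MIRI 1 (0.980, against 0.971). MIRI 1 and MIRI 3 were both most like GXNI 3 (0.986 and 0.987, against 0.985). The libraries that remain without MIRI 2 and GXNI 3 are thus not all nearest to their own label. Whether labels were exchanged was not tested. The MIRI comparisons with sham and with GXNI are given for the members with and without both libraries, and GXNI against sham with and without GXNI 3.

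In the labels' build (mm10, the same assembly as GRCm38 of the annotation used), Ulk1 (ENSMUSG00000029512) lies at chr5:110784488-110810097 on the minus strand. Becn1 (ENSMUSG00000035086) lies at chr11:101285952-101302286, also on the minus strand. Map1lc3a (ENSMUSG00000027602) is at chr2:155276297-155278073, Map1lc3b (ENSMUSG00000031812) at chr8:121590361-121598760 and Gabarapl1 (ENSMUSG00000030161) at chr6:129533160-129542346, all on the plus strand. Sqstm1 (ENSMUSG00000015837) is at chr11:50199366-50210827, Pink1 (ENSMUSG00000028756) at chr4:138313409-138326307 and Bnip3l (ENSMUSG00000022051) at chr14:66985239-67008877, all on the minus strand. Lamp2 (ENSMUSG00000016534) is at chrX:38401357-38456454 on the minus strand and Tfeb (ENSMUSG00000023990) at chr17:47737030-47792419 on the plus strand. Because the strand setting of the counting is not given in the sources used here, reads of Sqstm1, Becn1, Gabarapl1 and Map1lc3b cannot be told apart from those of genes whose exons overlap them on the other strand (Mrnip, Cntd1, 1700101I11Rik and Zcchc14). Of these, Cntd1, 1700101I11Rik and Mrnip had 33, 118 and 154 counts over the 9 libraries, and the count of Zcchc14 is not given here. Bnip3l shares 663 bp at 99.2% identity with the pseudogene Bnip3l-ps, which had 751 counts against 11099 for Bnip3l. How reads that fit both were counted is not given, so the Bnip3l level is uncertain to an unknown extent.

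Promoter sequence was at hand for 7 of the 10 members and is shown for 4, Ulk1 because it was called, Pink1 and Map1lc3b because they were called together with it when the library labelled MIRI 2 was left out, and Sqstm1 because it was not called in any of these fits. The RefSeq sequences (GRCm38.p6) are given 5′ to 3′ in the direction of transcription and end at the base before the outermost annotated start. Ulk1 is at chr5:110810098-110810331 on the minus strand, Pink1 at chr4:138326308-138326546 on the minus strand, Map1lc3b at chr8:121590188-121590360 on the plus strand and Sqstm1 at chr11:50210828-50211070 on the minus strand. Capitals mark the GC box GGGCGG, read on either strand.
Ulk1: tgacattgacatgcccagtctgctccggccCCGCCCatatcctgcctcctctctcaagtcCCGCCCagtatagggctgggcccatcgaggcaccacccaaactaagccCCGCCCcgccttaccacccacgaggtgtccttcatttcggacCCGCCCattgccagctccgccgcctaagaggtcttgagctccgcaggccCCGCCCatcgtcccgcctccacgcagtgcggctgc
Pink1: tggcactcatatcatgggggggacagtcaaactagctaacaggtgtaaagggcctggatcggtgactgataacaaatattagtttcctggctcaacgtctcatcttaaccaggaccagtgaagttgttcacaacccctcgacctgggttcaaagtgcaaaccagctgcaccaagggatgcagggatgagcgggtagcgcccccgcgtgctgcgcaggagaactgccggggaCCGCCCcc
Map1lc3b: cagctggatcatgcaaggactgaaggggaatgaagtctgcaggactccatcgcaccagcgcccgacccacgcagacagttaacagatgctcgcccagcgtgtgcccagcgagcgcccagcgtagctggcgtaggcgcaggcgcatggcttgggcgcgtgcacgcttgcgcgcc
Sqstm1: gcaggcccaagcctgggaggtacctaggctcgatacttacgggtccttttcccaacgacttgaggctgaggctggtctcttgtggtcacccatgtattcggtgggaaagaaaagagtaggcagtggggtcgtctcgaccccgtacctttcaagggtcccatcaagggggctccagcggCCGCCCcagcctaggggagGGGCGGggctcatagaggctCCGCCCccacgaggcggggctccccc
The Ulk1 stretch held 5 GC boxes, the Sqstm1 stretch 3, the Pink1 stretch 1 and the Map1lc3b stretch 0. Over the full 250 bases before the RefSeq start, all 7 members held at least 1 GC box, and 32.7% of 32851 promoters of that length did. The CCAAT box was in 1 of the 7 (Lamp2), against 33.8% of all promoters. On either strand the TATA box TATAAA, the TFEB site CACGTG, the forkhead motif GTAAACA, the hypoxia core ACGTG (which every CACGTG contains), the AP-1 motif TGANTCA and the antioxidant motif TGACNNNGC were in 0 of the 7, against 12.4%, 6.02%, 3.17%, 16.6%, 6.75% and 10.2% of all promoters. These matches describe the letters and not binding, and 7 genes are few.

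In sham hearts the members differed widely in level. Per kb of exon, Map1lc3a was the highest at 381 ± 18.3 CPM (SD, n = 3), followed by Pink1 at 261 ± 8.75, Sqstm1 at 142 ± 9.81 and Gabarapl1 at 60.0 ± 11.3. Map1lc3b at 34.1 ± 3.63 and Lamp2 at 22.2 ± 0.522 came next. Ulk1 at 17.4 ± 1.37 and Bnip3l at 16.1 ± 0.710 overlapped in their sham libraries, and all other neighbours in the order were apart. Becn1 at 6.73 ± 0.226 and Tfeb at 5.63 ± 0.328 were the lowest, and Tfeb still lay above 90.5% of the genes with a length. The order rests partly on the length used: on that of the longest protein-coding transcript Map1lc3b was at 97.4 CPM per kb, above Gabarapl1 at 66.3, Lamp2 was at 58.9, and Tfeb at 13.6 stood above Becn1 at 10.9.

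Ulk1 encodes the kinase that starts autophagosome formation when nutrients or energy run short. Its normalized counts were 123, 108 and 107 CPM in the sham hearts, 62.4, 89.0 and 54.8 CPM in the MIRI hearts and 89.5, 79.1 and 52.9 CPM in the GXNI hearts. No MIRI or GXNI heart reached the lowest sham heart. A gene was called, here and below, at a fold change of at least 1.5 with an unadjusted p of at most 0.01 in edgeR's quasi-likelihood test. Against sham, Ulk1 fell by 0.71 on the log2 scale in the MIRI group (SE 0.20, 95% interval -1.18 to -0.25, adjusted p = 0.098) and was called. Calls in either direction made up 8.97% of the genes tested there, 2.82% lower and 6.15% higher. In the GXNI group the log2 fold change was -0.61 (SE 0.20, adjusted p = 0.22), which was not called. In that comparison 4.21% of all genes were called, 1.54% lower and 2.67% higher. With the 6 MIRI and GXNI hearts as 1 group it fell by 0.66 (SE 0.19, 95% interval -1.09 to -0.24, adjusted p = 0.090) and was called, where 8.38% of all genes were, 2.85% lower and 5.52% higher. The 3 comparisons share the sham hearts.

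At an adjusted p of at most 0.05 in edgeR no member passed in these comparisons, where 0.0137% of all genes did for MIRI, 0% for GXNI and 0.0592% for the 6 hearts, and the Ulk1 call was lost with the loss of single mice. In the MIRI comparison it was lost without MIRI 1 (log2 fold change -0.65, adjusted p = 0.26), MIRI 3 (-0.58, adjusted p = 0.22), sham 1 (-0.66, adjusted p = 0.27), sham 2 (-0.75, adjusted p = 0.29) or sham 3 (-0.76, adjusted p = 0.28). Without the library labelled MIRI 2 the log2 fold change was -0.94 (SE 0.12, adjusted p = 0.0012), in a fit in which 30.2% of all genes were called. For the 6 hearts the call was lost without MIRI 1 (-0.63, adjusted p = 0.16), sham 1 (-0.60, adjusted p = 0.24), sham 2 (-0.70, adjusted p = 0.28) or sham 3 (-0.70, adjusted p = 0.25), and it held without both libraries that stood apart (-0.66, adjusted p = 0.081). DESeq2 gave Ulk1 an adjusted p of 0.028 in the MIRI comparison and 0.026 for the 6 hearts, in fits where 8.07% and 7.48% of all genes met the call rule. The share of all genes at an adjusted p of at most 0.05 in DESeq2 is not given here. Genes whose groups did not overlap and that were lower after ischemia and reperfusion made up 8.46% of all genes in the comparison of the 6 hearts, and Ulk1 was 1 of the 10 members.

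**Figure D1:**
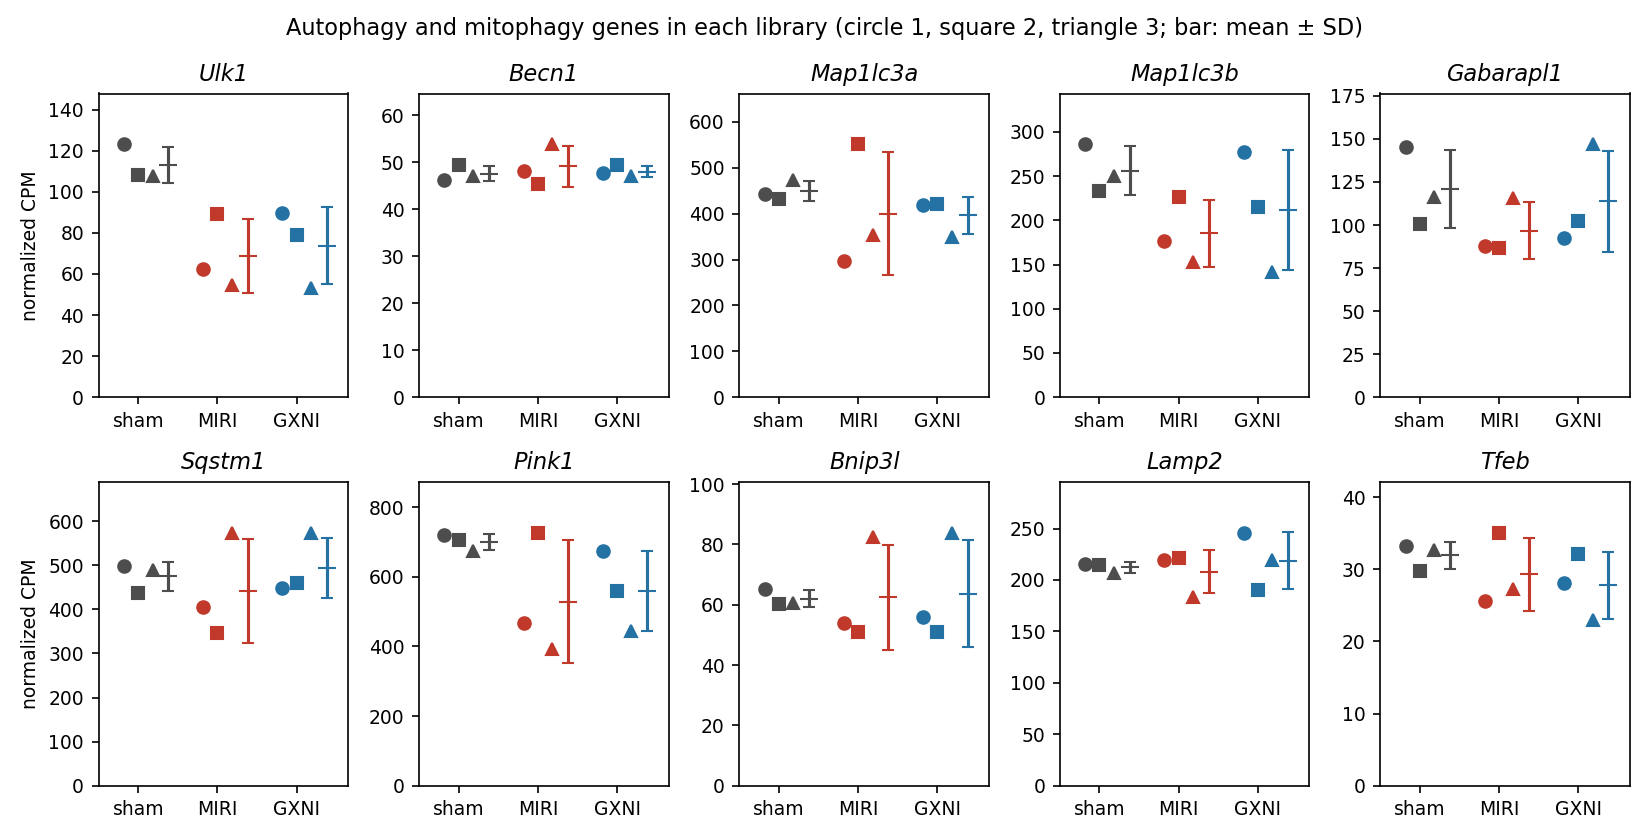
Normalized CPM of the 10 genes in each library (circle, square and triangle: mouse 1, 2 and 3 of the group), with group mean ± SD (n = 3) beside them and each vertical axis starting at 0. All 6 MIRI and GXNI hearts lie below the lowest sham heart for Ulk1, and for the other genes at least 1 of these 6 hearts lies within or above the sham range.

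Becn1, which encodes the scaffold of the lipid kinase complex that acts after ULK1, was nearly level in all libraries. It was read at 46.3, 49.4 and 47.1 CPM in the sham group, 48.1, 45.5 and 53.9 in the MIRI group and 47.6, 49.4 and 47.0 in the GXNI group. The difference of the 6 hearts from sham was 0.03 on the log2 scale, with a 95% interval from -0.17 to 0.24, which excludes a 1.5-fold difference in either direction.

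The LC3 and GABARAP proteins are joined to membrane lipid and hold cargo to the autophagosome. Map1lc3b was read at 286, 233 and 250.1 CPM in sham, 177, 227 and 153 in MIRI and 277, 215 and 141 in GXNI hearts. The 3 MIRI hearts lay below all sham hearts, as in 16.2% of all genes, while GXNI 1 lay inside the sham range. The log2 fold change of MIRI against sham was -0.46 (SE 0.18, 95% interval -0.89 to -0.04, adjusted p = 0.15) and the gene was not called. Without the library labelled MIRI 2 it was -0.64 (SE 0.13, adjusted p = 0.0076) and was called, in a fit in which 30.2% of all genes were called. For the 6 hearts it was -0.37 (SE 0.21, adjusted p = 0.25).

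Map1lc3a was read at 444, 431 and 473 CPM in sham, 297, 552 and 353 in MIRI and 418, 422 and 350.0 in GXNI hearts. The highest of the 9 values was in the library labelled MIRI 2 and the lowest in MIRI 1, and the 3 GXNI hearts lay below the sham hearts, as in 15.6% of all genes. The log2 fold changes against sham were -0.16 (SE 0.23) in MIRI and -0.17 (SE 0.13) in GXNI, and without the library labelled MIRI 2 the first was -0.47 (adjusted p = 0.018), under the fold that was required. Gabarapl1 was read at 145, 101 and 116 CPM in sham, 87.8, 86.4 and 116 in MIRI and 92.2, 102 and 147 in GXNI hearts, where the groups overlapped and the difference of the 6 hearts from sham was -0.20 (SE 0.19).

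Per kb of exon, Map1lc3a made up 90.6% to 94.0% of the LC3A and LC3B transcripts in the 9 libraries. The mean share was 91.8% ± 0.847 (SD) in sham and 92.7% ± 1.43 in the 6 hearts, a difference of 0.926 percentage points (p = 0.31, two-sided exact permutation test). The difference was 0.439 without sham 1 and 0.282 without the libraries labelled MIRI 2 and GXNI 3. On the length of the longest protein-coding transcript, chosen after seeing the data, the share ran from 78.1% to 85.4% and the difference was 1.98 percentage points. Of all 5 genes of the ATG8 family, Map1lc3a gave 58.4% to 70.8% of the transcripts, Gabarapl1 6.51% to 14.4% and Map1lc3b 3.70% to 6.70%, per kb of exon. On the transcript length these were 50.3% to 62.6%, 5.99% to 13.2% and 8.76% to 15.3%, and the order of Gabarapl1 and Map1lc3b turned in 7 of the 9 libraries. With all libraries kept, no gene of this family was called in any comparison, and 4 of its 5 genes had a negative log2 fold change for the 6 hearts, with a median of -0.17.

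Sqstm1 encodes p62, which binds ubiquitin-tagged cargo. It was read at 499, 438 and 490.0 CPM in sham, 406, 346 and 574 in MIRI and 448, 460.5 and 573 in GXNI hearts. The libraries MIRI 3 and GXNI 3 were the highest and the library labelled MIRI 2 the lowest, so the MIRI and GXNI hearts together spanned the sham range on both sides. The difference of the 6 hearts from sham was -0.02 (SE 0.17, adjusted p = 0.94).

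Pink1 encodes the kinase that builds up on damaged mitochondria and recruits the ubiquitin ligase parkin. It was read at 719, 705 and 673 CPM in sham, 467, 727 and 393 in MIRI and 673, 558 and 443 in GXNI hearts. The library labelled MIRI 2 was the highest of all 9, and the other 2 MIRI hearts lay well below sham. The log2 fold change of MIRI against sham was -0.40 (SE 0.23, adjusted p = 0.29), and without the library labelled MIRI 2 it was -0.70 (SE 0.11, adjusted p = 0.0029) and was called, again among 30.2% of all genes. For the 6 hearts it was -0.36 (SE 0.20, adjusted p = 0.23).

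Bnip3l encodes NIX, a mitophagy receptor in the outer mitochondrial membrane that is known from red cell maturation and hypoxia. It was read at 65.1, 60.3 and 60.5 CPM in sham, 53.8, 51.0 and 82.5 in MIRI and 55.9, 51.1 and 83.9 in GXNI hearts. MIRI 3 and GXNI 3 were above all sham hearts and the other 4 below them, and the difference of the 6 hearts from sham was 0.02 (SE 0.19). The share of Bnip3l in the transcripts of Bnip3l and its paralog Bnip3, per kb of exon, was 14.8%, 15.2% and 18.6% in sham, 20.6%, 15.2% and 23.9% in MIRI and 21.7%, 18.2% and 23.0% in GXNI hearts. The mean share was 16.2% ± 2.09 in sham and 20.4% ± 3.24 in the 6 hearts, a difference of 4.26 percentage points (p = 0.095, two-sided exact permutation test, whose smallest p for 6 against 3 is 0.0238).

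Lamp2, a main protein of the lysosomal membrane, was read at 216, 215 and 206 CPM in sham, 220, 221 and 184 in MIRI and 246, 190.2 and 220 in GXNI hearts. Tfeb, the transcription factor of lysosomal biogenesis, was read at 33.3, 29.8 and 32.7 CPM in sham, 25.6, 35.1 and 27.2 in MIRI and 28.2, 32.1 and 23.0 in GXNI hearts. Both overlapped between groups. For the 6 hearts against sham the log2 fold change was 0.01 (SE 0.11) for Lamp2 and -0.16 (SE 0.14) for Tfeb.

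**Figure D2:**
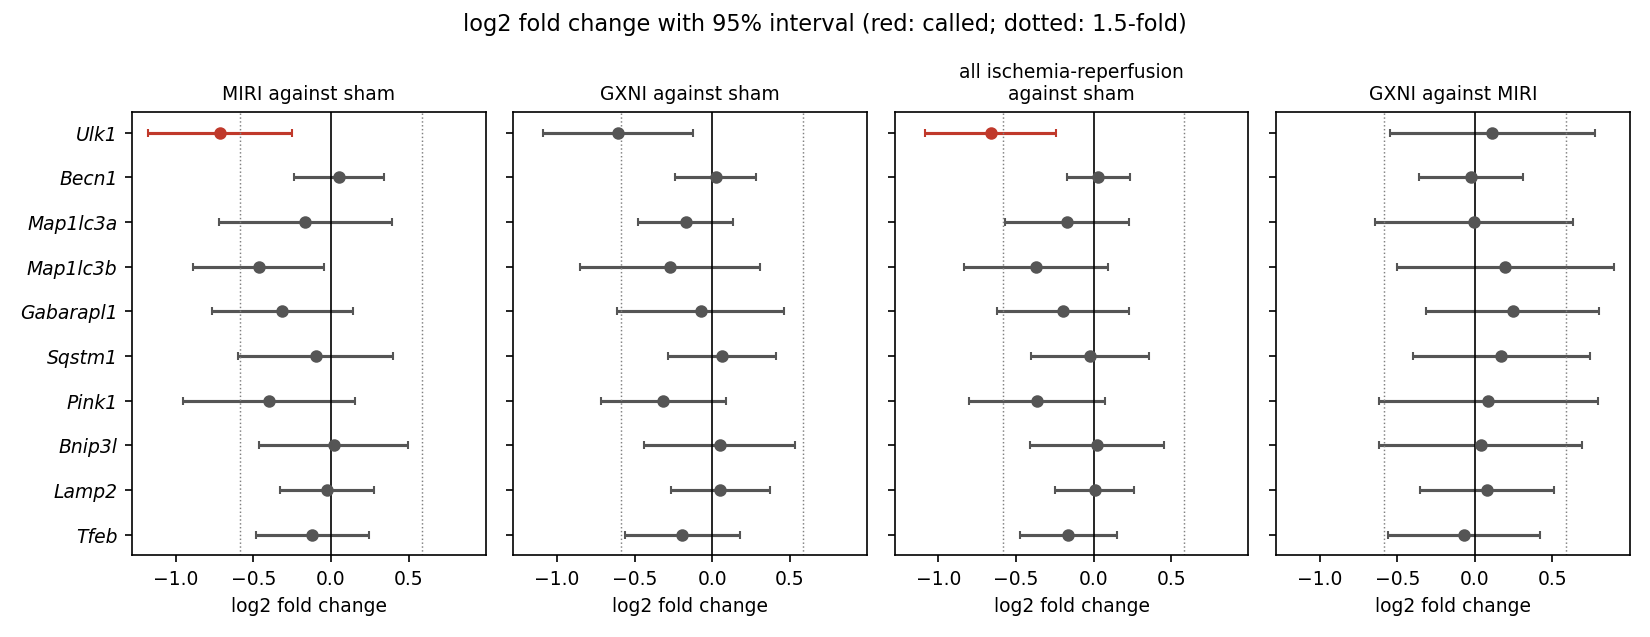
log2 fold changes of the 10 genes in the 4 comparisons, as points with 95% intervals, with 1.5-fold as dotted lines and called genes in red. Ulk1 was called in MIRI against sham (-0.71) and in all ischemia-reperfusion hearts against sham (-0.66), and every interval in GXNI against MIRI spans 0.

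Without the libraries labelled MIRI 2 and GXNI 3, the log2 fold changes of MIRI against sham for the other members were 0.05 for Sqstm1 (SE 0.16), -0.24 for Gabarapl1 (SE 0.19) and 0.10 for Becn1 (SE 0.11). They were 0.14 for Bnip3l (SE 0.18), -0.27 for Tfeb (SE 0.11) and -0.07 for Lamp2 (SE 0.11). None of these 6 was called, so the members called in that fit were Map1lc3b, Ulk1 and Pink1, 3 of 10 against 30.2% of all genes. For GXNI against sham without GXNI 3, Ulk1 was at -0.42 (SE 0.12, adjusted p = 0.22), Map1lc3b at -0.05 and Pink1 at -0.18. With all libraries they were at -0.61, -0.27 and -0.32. Map1lc3a, Sqstm1, Gabarapl1, Becn1, Bnip3l, Tfeb and Lamp2 were at -0.09, -0.06, -0.31, 0.03, -0.21, -0.08 and 0.04 without GXNI 3. No member was called there, where 3.57% of all genes were.

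By direction alone, 8 of the 10 members had a negative log2 fold change in MIRI against sham, 6 in GXNI against sham and 7 for the 6 hearts, where 50.1%, 49.1% and 49.5% of all genes did. Genes lower with no overlap of the groups made up 16.2%, 15.6% and 8.46% of all genes and 2, 2 and 1 of the members.

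The question for the injection was whether any member differed between GXNI and MIRI hearts, and with all 6 libraries none was called. The log2 fold changes of the members ran from -0.07 for Tfeb to 0.24 for Gabarapl1 with a median of 0.08, and 3 of the 10 were negative, where 50.1% of all genes were. In this comparison 0.0203% of all genes were called (3 genes, all lower), 0% passed an adjusted p of at most 0.05 and 0.318% had an unadjusted p under 0.05, and 1.49% of all genes but no member lay lower in GXNI without overlap. The 95% intervals were wide. That of Ulk1 ran from -0.55 to 0.77 and that of Map1lc3b from -0.50 to 0.90, so a level 1.5-fold higher in GXNI hearts lies inside both intervals.

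Without the libraries labelled MIRI 2 and GXNI 3, with 2 hearts in each group, Map1lc3b was 0.59 higher in GXNI than in MIRI hearts on the log2 scale (SE 0.21, adjusted p = 0.23). Ulk1 was 0.54 higher (SE 0.18, adjusted p = 0.22) and Pink1 0.53 higher (SE 0.21, adjusted p = 0.25). None of these met the call rule. For Map1lc3a, Sqstm1, Gabarapl1, Becn1, Bnip3l, Tfeb and Lamp2 the log2 fold changes were 0.38, -0.10, -0.06, -0.06, -0.34, 0.20 and 0.12, and none was called. In that fit 748 of 14984 genes, 4.99%, were called, so these values stand on 2 mice a group and on a choice of libraries made because they stood apart.

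The extreme values of the members fell mostly in a few libraries. Of the 10 members, the library labelled MIRI 2 held the lowest value for 4 (Sqstm1, Gabarapl1, Becn1 and Bnip3l) and the highest for 3 (Map1lc3a, Pink1 and Tfeb). GXNI 3 held the lowest for Map1lc3b, Ulk1 and Tfeb and the highest for Gabarapl1 and Bnip3l. MIRI 3, which did not stand apart from its label, held the lowest for Pink1 and Lamp2 and the highest for Sqstm1 and Becn1. The rest were the highest Map1lc3b and Ulk1 in sham 1, the lowest Map1lc3a in MIRI 1 and the highest Lamp2 in GXNI 1.

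In bulk tissue, fewer cells of a type and less RNA per cell cannot be told apart, and markers of cell types moved with these libraries. The summed level of 8 cardiomyocyte markers was 45934 to 48780 CPM in sham, 29242, 49250 and 30734 in MIRI and 41406, 31576 and 28512 in GXNI hearts. The summed level of 10 neutrophil markers was 30.1 to 60.9 CPM in sham, 764, 28.0 and 707 in MIRI and 50.4, 232 and 740 in GXNI hearts. In the library labelled MIRI 2 the cardiomyocyte sum was above and the neutrophil sum below all sham hearts. Ulk1, at 89.0 CPM, was below all sham hearts there. The cardiomyocyte markers did not move alike in that library: Actc1, Tnnt2 and Ryr2 were above all sham hearts. Myh6, Atp2a2 and Ckm were below them, and Tnni3 and Pln lay within the sham range. Actc1 was at 8824 CPM against 4118 to 5503 in sham, and Myh6 at 14130 against 14448 to 16456. In MIRI 1, MIRI 3 and GXNI 3, which had the lowest Ulk1 levels, the cardiomyocyte sum was 28512 to 30734 CPM. The part of cell makeup in the lower Ulk1 level was not tested.

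**Figure D3:**
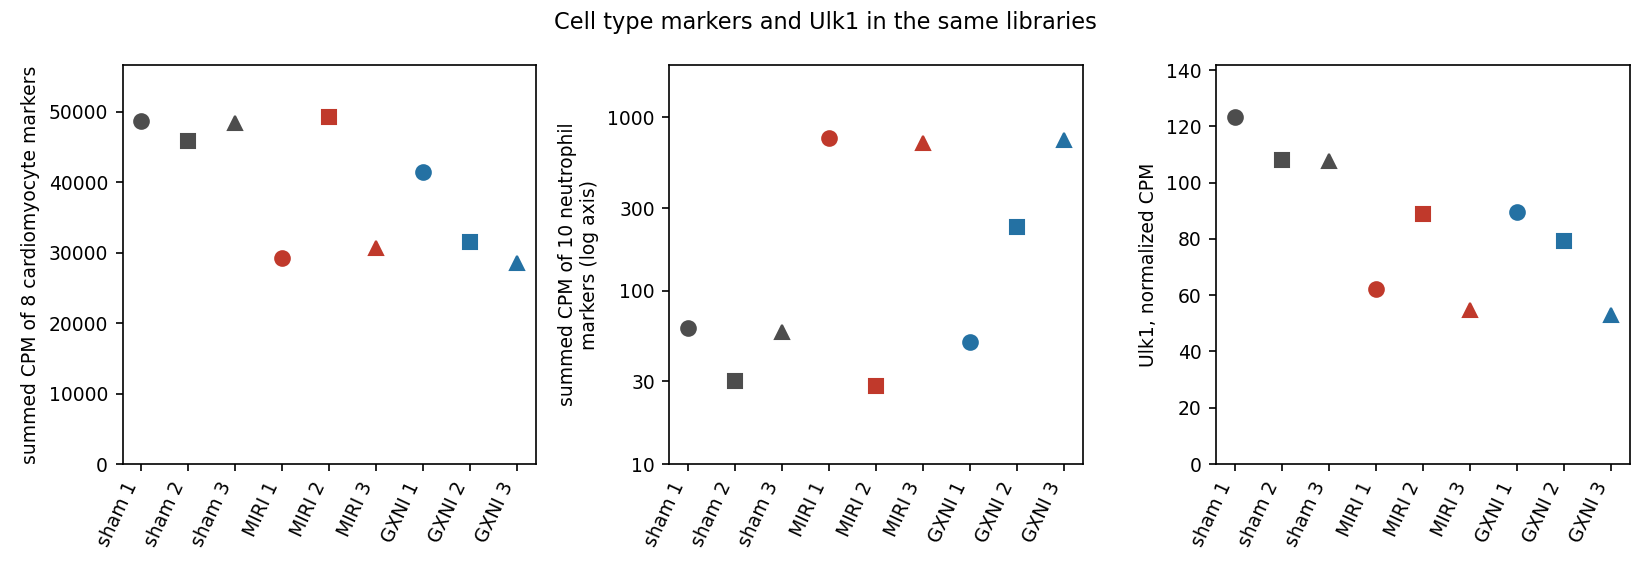
Summed CPM of 8 cardiomyocyte markers, summed CPM of 10 neutrophil markers (log axis) and Ulk1 in CPM, each library as 1 point, coloured by group and shaped by mouse number. Ulk1 lies below the lowest sham library (107 CPM) in all 6 MIRI and GXNI libraries, and the neutrophil sum is above the highest sham library (60.9 CPM) in 4 of them, MIRI 1, MIRI 3, GXNI 2 and GXNI 3.

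The other genes of the pathway, 102 of them in 8 lists beside the members, were tested in the same fits. For the 6 hearts against sham, 1 was called higher and 4 lower, against 8.38% of all genes, and the median log2 fold change was -0.08, that of the 10 members being -0.17 and that of all genes 0.01. In MIRI against sham 3 were called higher and 5 lower, 7.84% of the 102 against 8.97% of all genes. In GXNI against sham 1 was called higher and 4 lower, 4.90% against 4.21%, and in GXNI against MIRI 0 in either direction against 0.0203%. By list, for the 6 hearts against sham, autophagy initiation had 2 of 13 genes lower (Ulk1 and Atg14), phagophore growth and conjugation 1 of 19 (Atg10), and the selective receptors 2 of 10 lower (Optn and Retreg1) and 1 higher (Stbd1). The lists of the ATG8 family, mitophagy (14 genes), fusion with the lysosome (13), lysosome membrane and enzymes (22) and regulators (16) had 0 calls.

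These 5 genes were taken because they were called in this comparison, and for each of them all 6 MIRI and GXNI hearts lay beyond the sham range. Of the 102 genes, 13 were lower without overlap of the groups, where 8.46% of all genes were, and 7 were higher without overlap. The share of all genes higher without overlap is not given here, so the 7 cannot be read as many or few. Atg14, a subunit that directs the Beclin 1 complex to the forming autophagosome, was read at 17.0, 13.7 and 16.1 CPM in sham, 9.55, 9.08 and 8.70 in MIRI and 11.7, 9.11 and 8.19 in GXNI hearts. It fell by 0.73 on the log2 scale in the 6 hearts (SE 0.14, adjusted p = 0.067). Optn, which encodes optineurin, a receptor for ubiquitin-tagged mitochondria and other cargo, was read at 83.4, 84.5 and 86.0 CPM in sham, 41.0, 58.6 and 39.7 in MIRI and 49.4, 55.0 and 40.4 in GXNI hearts. It fell by 0.84 (SE 0.14, adjusted p = 0.056).

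Retreg1 encodes a receptor for the endoplasmic reticulum. It was read at 284, 345 and 315 CPM in sham, 167, 245 and 163 in MIRI and 277, 160 and 167 in GXNI hearts and fell by 0.68 (SE 0.20, adjusted p = 0.091). Atg10, an enzyme of the conjugation of ATG12 to ATG5, fell by 1.08 (SE 0.32, adjusted p = 0.091), with 16.4 to 17.5 CPM in sham and 4.20 to 12.6 CPM in the 6 hearts. Stbd1, a glycogen-binding receptor, rose by 1.12 (SE 0.20, adjusted p = 0.057), with 6.88 to 8.04 CPM in sham and 12.1 to 22.0 CPM in the 6 hearts. The calls of Atg14, Optn and Stbd1 held when any 1 library was left out, and those of Retreg1 and Atg10 were lost without MIRI 1, GXNI 2, GXNI 3 or any of the sham libraries, and that of Retreg1 also without MIRI 3. With 1 library left out the log2 fold change ran from -0.80 to -0.61 for Retreg1 and from -1.25 to -0.95 for Atg10.

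**Figure D4:**
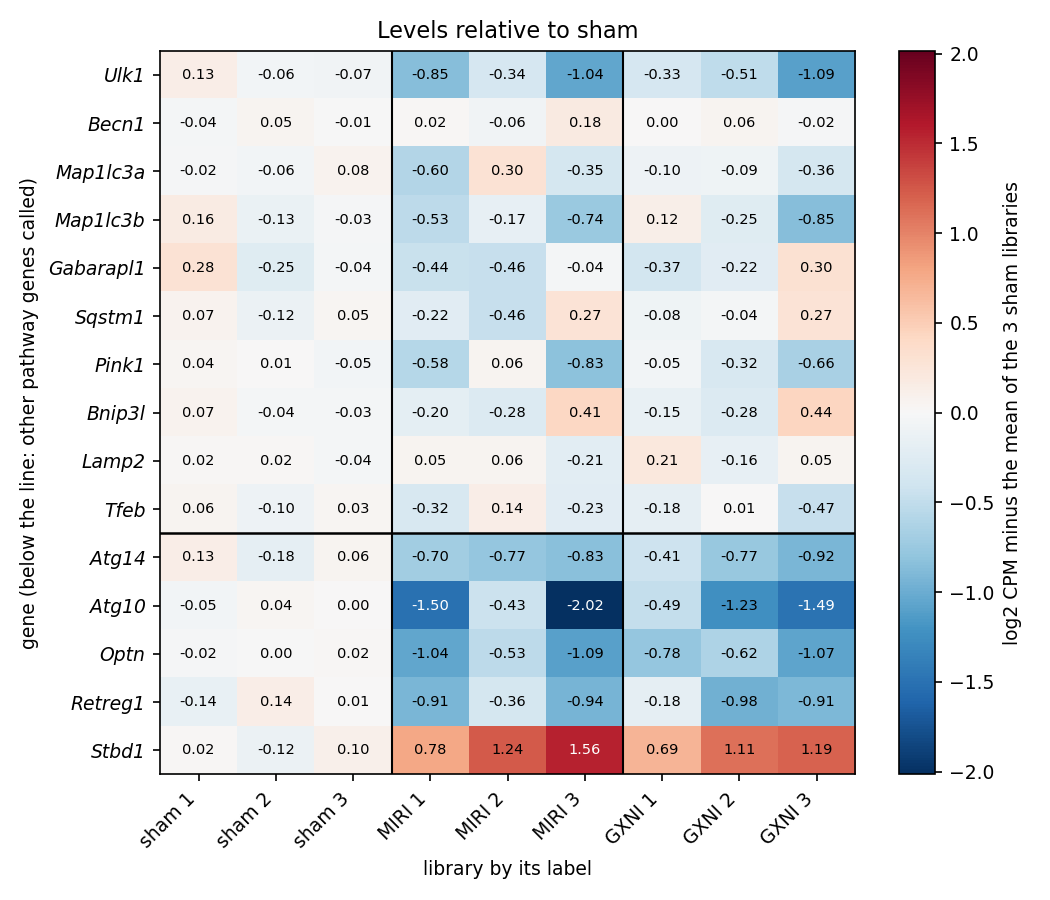
log2 CPM of the 10 genes and, under the line, of the 5 other pathway genes called in the 6 hearts, in each library minus the mean of the 3 sham libraries (blue lower, red higher). Ulk1 lies at -1.09 to -0.33 in the 6 MIRI and GXNI hearts, Optn at -1.09 to -0.53 and Stbd1 at 0.69 to 1.56, and Becn1 stays between -0.06 and 0.18.

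The genes whose levels followed Ulk1 most closely over the 9 libraries were Clasp2, a microtubule-binding protein, Isyna1, which makes inositol phosphate, and Aga, a lysosomal enzyme. The root mean square difference of their centred log2 CPM from that of Ulk1 was 0.07, 0.08 and 0.09 over 15207 genes ranked. Clasp2 was at 55.7 to 64.2 CPM in sham and 29.9 to 51.4 CPM in the 6 hearts. They share the libraries with Ulk1, and nothing further was measured of them.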

How the data were processed

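RNA from the heart tissue of 9 mice, 3 in each of the sham, MIRI and GXNI groups, was sequenced by the authors. Per the labels and the methods, reads were aligned with HISAT2 to mm10 and counted with featureCounts (Subread); versions, annotation release and strand setting are not given in the sources used here. The deposited values are read counts per gene, not normalized, with 1 column per mouse. Groups and replicate numbers follow the labels, and each mouse is a separate animal.

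Of 54532 identifiers, 54409 matched a GENCODE M21 symbol. Each comparison was fitted on its own libraries with edgeR 4.0.16 in R 4.3.3 (TMM normalization, default filter, quasi-likelihood F test, no covariates), and adjusted p-values (Benjamini-Hochberg) cover all genes tested. Genes were called at the study's thresholds, 1.5-fold and an unadjusted p of 0.01. The SE is the log2 fold change over the square root of F. Normalized CPM uses TMM factors. Shares were tested by exact permutation of mice (two-sided), with 0.1 as the smallest p for 3 against 3. Alternatives were DESeq2 1.42.0, RLE normalization, no filter, mitochondrial genes left out, the replicate block, all 9 libraries in 1 fit, adjusted p of at most 0.05, and libraries left out. The fit was tested on simulated data for MIRI against sham, in which edgeR recovered 200 of 200 altered genes of 14778 run. How often differences of the size and spread seen in these hearts would be found was not tested.

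The members and lists were chosen with earlier results of these data known. Named genes are the members, up to 3 called genes per list for the 6 hearts, and the 3 genes most like a called member.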

Additional observations from a re-analysis of the deposited data

How the results depend on the processing

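Of 580 member values recomputed, 562 stayed on the same side of the call rule, 13 called values lost it and 5 gained it. Only Ulk1, in MIRI against sham and for the 6 hearts, was called in the main fits, and all 13 losses were Ulk1 values. Most of the 562 had no call to lose, so that number does not show how stable the Ulk1 call was. In 51 the sign differed from the reported value, and none of those was called. In MIRI against sham the count of members called, 1, was 0 with the replicate block, with all 9 libraries in 1 fit and at an adjusted p of at most 0.05, and 3 (Map1lc3b, Ulk1 and Pink1) without the libraries labelled MIRI 2 and GXNI 3, where 4592 of 15207 genes (30.2%) were called. Leaving out 1 library gave 0 to 3, the 3 without the library labelled MIRI 2. For the 6 hearts against sham it was 0 at an adjusted p of at most 0.05, and 0 to 1 with 1 library left out. In GXNI against sham it was 0 to 1, with Ulk1 called without GXNI 1 (-0.76, adjusted p = 0.045). Without GXNI 3 the Ulk1 value there was -0.42 (adjusted p = 0.22) and was not called. The share of Map1lc3a in GXNI against sham, 0.620 percentage points, was -0.202 without the libraries that stood apart and -0.202 to 1.53 with 1 left out, and in GXNI against MIRI, where it was -0.612, it was -1.43 to 0.296. The share of Bnip3l in GXNI against MIRI, 1.11, was -2.26 without both and -1.24 to 3.11 with 1 left out. The cause of these changes was not tested. Lengths of the longest coding transcript, chosen after seeing the data, changed the sign of no difference in the Map1lc3a and Bnip3l shares, but turned the order of Map1lc3b and Gabarapl1. Over all genes, the 1313 calls of MIRI against sham were 2251 in DESeq2, 2406 with no filter, 800 with all 9 libraries in 1 fit and 514 to 4592 with 1 left out. The 3 calls of GXNI against MIRI were 11 in DESeq2, 10 with no filter, 9 with all 9 libraries in 1 fit, 748 without both and 1 to 12 with 1 left out. The 618 of GXNI against sham were 1401 in DESeq2, 1425 with no filter and 175 to 2665 with 1 left out. The 1274 for the 6 hearts were 2196 in DESeq2 and 463 to 2298 with 1 left out. Same-numbered libraries of different groups had correlations of -0.443 to 0.701 in their deviations from the group mean. Deviations within a group of 3 are tied to each other, so these values cannot decide whether the numbers pair the mice. With the replicate block the Ulk1 difference was -0.74 in MIRI against sham (adjusted p = 0.14) and -0.69 for the 6 hearts (adjusted p = 0.073). Each mouse is 1 library, so the errors hold for 3 mice a group.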
